A study of Mus musculus with 9 samples.

Results

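The genes described here are the subunits of the mitochondrial respiratory chain and ATP synthase, measured in the lungs of 9 mice. They were chosen by symbol alone: names beginning mt-Nd, mt-Co, mt-Cytb or mt-Atp, the Ndufa, Ndufb, Ndufc, Ndufs and Ndufv families, Cox4 to Cox8, Uqcr, the 4 Sdh genes, and Atp5, without names ending in -ps. The rule found 106 of the 25526 names in the table. Of these, 13 are the protein genes of the mitochondrial genome, 77 are nuclear genes of the common subunits, 8 are nuclear variant subunits whose use is restricted to some tissues, and 8 are the Ndufaf assembly factors, which the rule takes in by their spelling. Cox7b2 and Cox8c were listed at 0 in every library, and the other 104 entered the tests.

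Each group held 3 mice. The nanozyme group received PepNzymeSOD-CAT, an inhalable self-assembled polypeptide material named for superoxide dismutase and catalase activities, the model group had a pulmonary fibrosis model, and the normal group served as the baseline. The labels used here state neither the agent that induced fibrosis, the dose and timing of the nanozyme, nor the strain, sex and age of the mice. The sample titles do not state whether the mice given the nanozyme also had the fibrosis model. Values are FPKM, fragment counts divided by the length of the transcript and the size of the library, from whole lung RNA selected with oligo(dT) beads. Changes are log2 fold changes of FPKM + 1 with their standard errors from limma, p-values are adjusted over all 14540 genes tested, and a gene was called when the adjusted p was under 0.05. Adding 1 to each FPKM understates changes of low genes.

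Oxidative phosphorylation passes electrons from NADH through complex I, or from succinate through complex II, to complex III and then to oxygen at complex IV, and complex V uses the proton gradient to make ATP. Complexes I, III, IV and V are built from proteins of both genomes: the mitochondrial DNA encodes core subunits embedded in the inner membrane, and the nuclear genes encode the remaining core and the accessory subunits. Complex II is wholly nuclear. In the lung the chain is abundant in ciliated, club and alveolar type 2 cells and in the cardiac muscle around pulmonary veins, while neutrophils rely mostly on glycolysis.

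All 7 markers of lung structure were detected in the libraries. Between model and normal lungs 5 of the 7 were lower and 0 higher. Their summed FPKM was 33545 to 56116 in nanozyme lungs, 16171 to 25951 in model lungs and 80537 to 101762 in normal lungs. That of the alveolar type 2 list was 19933 to 32006 in nanozyme lungs, 10694 to 14904 in model lungs and 26055 to 32897 in normal lungs. The libraries also differed in cell markers. Between model and normal lungs, 12 of 13 neutrophil markers and 13 of 13 macrophage markers were higher, and 17 of 19 ciliated, 5 of 11 club, 5 of 12 alveolar type 2 and 7 of 11 tested cardiac markers were lower. Over all genes tested, 17.4% were higher and 22.7% lower. All 6 tested red blood cell markers were lower in model lungs and in nanozyme lungs than in normal lungs. Of all genes tested, 22.7% were lower in model lungs and 5.5% in nanozyme lungs. The summed FPKM of the red blood cell list was 132 to 791 in nanozyme lungs, 173 to 320.1 in model lungs and 3531 to 4255 in normal lungs. The summed FPKM of the ciliated list was 483 to 604 in nanozyme lungs, 254 to 549.6 in model lungs and 919 to 1544 in normal lungs. That of the neutrophil list was 1426 to 6892 in nanozyme lungs, 6475 to 8915 in model lungs and 129 to 417 in normal lungs, and the highest nanozyme value belonged to nanozyme library 2. In whole tissue, fewer cells of a type and less RNA per cell cannot be told apart, and the part of these markers in the results below was not tested. The labels give no batch or date, and any run of the nanozyme libraries on their own cannot be told apart from the treatment.

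The transcripts of the mitochondrial genome were lower in model lungs than in normal lungs, while those of the nuclear subunits had a median change near 0, whose sign flips with quantile normalization, without the 100 most abundant genes in the scaling, or without model library 2. Of the 13 mitochondrial genes, 8 fell and 0 rose in model lungs: all 7 genes of complex I and mt-Cytb of complex III. Over all genes tested, 22.7% fell and 17.4% rose, or 40.1% in either direction. The median log2 change of the 13 was -0.63, against -0.12 over all genes tested and 0.04 over the 77 nuclear subunits. In 11 of the 13, every model lung was below every normal lung, which was so for 34.9% of all genes tested. The 13 genes belong to 1 genome and were measured in the same lungs, so they are not 13 independent results. The count of 8 became 4 without normal library 1 or normal library 3, and 12 without model library 2. Over all genes tested, the 3299 that fell became 1987 without normal library 1, 1920 without normal library 3 and 2529 without model library 2.

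The complex I genes had the largest median change of the mitochondrial genes, -0.75. mt-Nd2, a subunit of the proton-pumping membrane arm, was at 1456, 1121 and 1640.0 FPKM in nanozyme lungs, at 1231, 1151 and 974 FPKM in model lungs and at 2197, 2129.6 and 2168 FPKM in normal lungs. Neither the model nor the nanozyme lungs overlapped the normal lungs. Its change between model and normal lungs was -0.96 ± 0.18 (adjusted p = 0.00429). mt-Nd4, another pumping subunit, was at 1585, 1369.6 and 1799 FPKM in nanozyme lungs, 1382, 1436 and 1107 FPKM in model lungs and 2461, 2269 and 2346 FPKM in normal lungs, a change of -0.86 ± 0.17 between model and normal lungs (adjusted p = 0.00528). mt-Nd4l, the small subunit encoded beside it, had 836, 700.5 and 775 FPKM in nanozyme lungs, 679.6, 686 and 707 FPKM in model lungs and 1202, 1029 and 1135 FPKM in normal lungs. The 3 model lungs lay closer together for mt-Nd4l than for any other mitochondrial gene, and the change was -0.70 ± 0.12 (adjusted p = 0.00394).

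mt-Nd5, at the far end of the same arm, had 1039.8, 765 and 977 FPKM in nanozyme lungs, 881, 757 and 739 FPKM in model lungs and 1310.4, 1214 and 1269 FPKM in normal lungs (-0.68 ± 0.15 between model and normal lungs, adjusted p = 0.00980). mt-Nd3 varied most within the model group, with 455, 442 and 495 FPKM in nanozyme lungs, 329, 506 and 232 FPKM in model lungs and 652, 552 and 579 FPKM in normal lungs. Model library 2 was the high one, and the change was -0.81 ± 0.25 (adjusted p = 0.0320). mt-Nd1 had 2289, 1758 and 2345 FPKM in nanozyme lungs, 1817, 1986 and 1485 FPKM in model lungs and 2643, 2641 and 2674 FPKM in normal lungs (-0.60 ± 0.18, adjusted p = 0.0282). mt-Nd6 is the one protein gene on the opposite strand, and its annotated end overlaps mt-Nd5 by 14 bases. The strand setting of the counting is not given in the sources used here, so reads from the other strand cannot be told apart from its own. It was listed at 1067, 872 and 1227 FPKM in nanozyme lungs, 979, 898 and 655 FPKM in model lungs and 1423, 1389 and 1396 FPKM in normal lungs (-0.75 ± 0.19, adjusted p = 0.0151).

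mt-Cytb, the only subunit of complex III encoded in the mitochondrion, was at 2583, 2377 and 2853 FPKM in nanozyme lungs, 2315, 2581 and 2050.3 FPKM in model lungs and 3692, 3443 and 3566 FPKM in normal lungs (-0.63 ± 0.16 between model and normal lungs, adjusted p = 0.0156). The catalytic subunit of complex IV, mt-Co1, was the highest member of all, at 6495, 5731 and 6146 FPKM in nanozyme lungs, 5599, 6513 and 5054 FPKM in model lungs and 8144, 7565 and 7864 FPKM in normal lungs. Model and nanozyme lungs did not overlap normal lungs, but the change of -0.46 ± 0.19 did not pass (adjusted p = 0.0791). mt-Co2, which receives electrons from cytochrome c, had 2123, 2134 and 2498 FPKM in nanozyme lungs, 1884, 2600.4 and 1759 FPKM in model lungs and 2772, 2648 and 2725 FPKM in normal lungs (-0.40 ± 0.18, adjusted p = 0.112). mt-Co3 had 2332, 2041 and 2415 FPKM in nanozyme lungs, 1766, 2709 and 1633 FPKM in model lungs and 2975, 2696 and 2851 FPKM in normal lungs (-0.52 ± 0.21, adjusted p = 0.0824). In mt-Co2, mt-Co3 and the ATP synthase gene mt-Atp8, model library 2 stood near the normal lungs and above the other 2 model libraries.

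**Figure D1:**
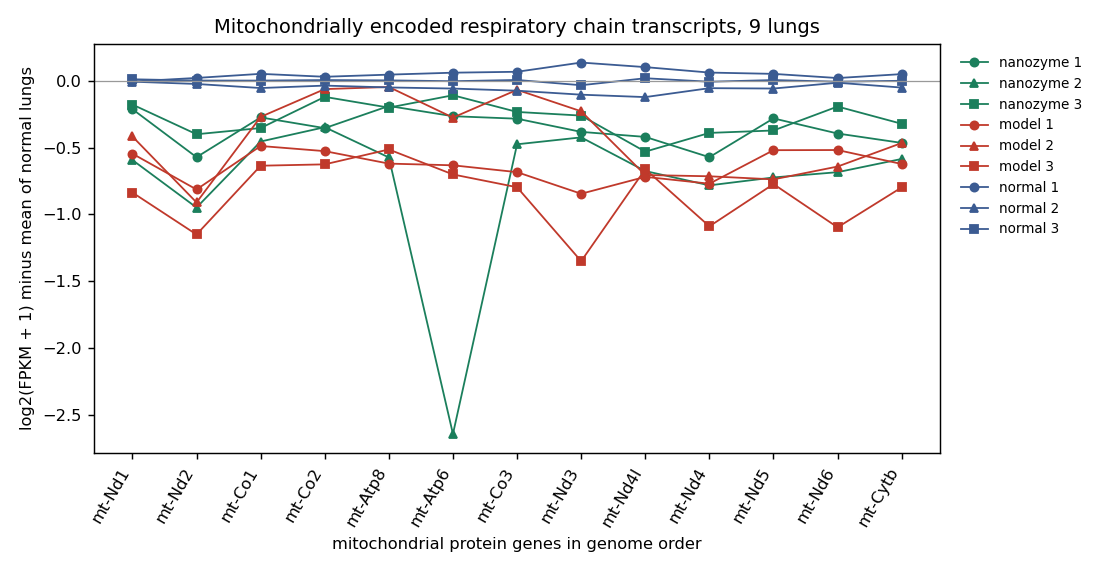
Log2(FPKM + 1) of the 13 mitochondrial protein genes in each library, minus the mean of the 3 normal lungs, with genes in genome order on the horizontal axis and 1 line per library. All model and nanozyme points lie below 0, model library 2 comes close to it at mt-Co2, mt-Atp8 and mt-Co3, and mt-Atp6 drops in nanozyme library 2 alone (565 FPKM).

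The complex I genes were also lower relative to the complex IV genes of the same genome. The mean log2 level of the 7 mt-Nd genes minus that of mt-Co1, mt-Co2 and mt-Co3 was -1.50, -1.67 and -1.50 in nanozyme lungs, -1.51, -1.89 and -1.71 in model lungs, and -1.40, -1.40 and -1.41 in normal lungs. The 6 nanozyme and model libraries lay below the 3 normal ones. Scaling by 1 factor per library leaves this difference unaltered, apart from the added 1, whereas quantile normalization moves genes of a library unequally.

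The fitted level of nanozyme lungs was above that of model lungs in 12 of the 13 mitochondrial genes and below that of normal lungs in all 13, but no member of either genome passed the test against model lungs. limma called 0 of 104 members and 0% of the 14540 genes in either direction, and 8 members had an unadjusted p under 0.05, against 22.1% of all genes tested. The median log2 change between nanozyme and model lungs was 0.19 over the 13 mitochondrial genes, 0.06 over the 77 nuclear subunits and 0.09 over all genes tested. The mitochondrial median was 0.08 with median-of-ratios scaling and 0.35 without nanozyme library 2. The nuclear median was -0.05 with median-of-ratios scaling, -0.06 without model library 3 and 0.22 without model library 2, so its sign depends on the scaling and on 1 library. The groups did not overlap in 6 members that were higher and 1 that was lower in nanozyme lungs, against 10.6% and 5.83% of all genes tested. None of these 7 was mitochondrial.

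Against normal lungs, mitochondrial transcripts in nanozyme lungs were lower in all 13 genes without overlap, which was so for 20.8% of all genes tested. Of the 13, 2 fell by the test, against 5.5% of all genes that fell, 8.39% that rose and 13.9% called in either direction. The count of 2 became 0 without normal library 1 or normal library 3, 1 when any one of the 3 nanozyme libraries, model library 1 or normal library 2 was left out, and 4 without model library 2. Over all genes tested, the 800 that fell became 168 without normal library 1, 148 without normal library 3 and 917 without model library 2. The 2 genes were mt-Nd2 (-0.64 ± 0.18, adjusted p = 0.0461) and mt-Nd4l (-0.54 ± 0.12, adjusted p = 0.0251). mt-Nd4 (-0.58 ± 0.17, adjusted p = 0.0521) and mt-Nd5 (-0.46 ± 0.15, adjusted p = 0.0817) did not pass. The median of the 13 was -0.42, against 0.11 for the 77 nuclear subunits and -0.01 for all genes tested, and the nuclear median was -0.01 with quantile normalization and 0.01 without the 100 most abundant genes in the scaling. Both nanozyme comparisons and the model comparison share libraries, and their values are therefore not independent of one another.

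mt-Atp6, the ATP synthase subunit that forms the proton channel with the c-ring, departed from its neighbours in one library. It was at 2945, 565 and 3283 FPKM in nanozyme lungs, 2282, 2924 and 2176 FPKM in model lungs and 3691, 3399.5 and 3532 FPKM in normal lungs. mt-Atp8, whose gene lies just before it and is read from the same transcript, had 2224, 1703 and 2206 FPKM in nanozyme lungs, 1649, 2455 and 1775 FPKM in model lungs and 2618, 2449.5 and 2541 FPKM in normal lungs. The ratio of mt-Atp6 to mt-Atp8 was 0.332 in nanozyme library 2 and between 1.19 and 1.49 in the other 8 libraries. The 2 reading frames overlap by 43 bases on chrM:7927-7969 (GRCm38, plus strand, GENCODE vM21 transcripts). The stretch is shown because fragments that cover it belong to both genes, with the first triplet of mt-Atp6 and the last triplet of mt-Atp8 in capitals.
mt-Atp8/mt-Atp6 overlap: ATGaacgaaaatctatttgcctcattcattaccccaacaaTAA
How the authors' counting divided fragments over these bases is not given in the sources used here. mt-Atp6 was not called in any comparison, with changes of -0.54 ± 0.59 between model and normal lungs (adjusted p = 0.490) and -0.47 ± 0.59 between nanozyme and model lungs (adjusted p = 0.652). mt-Atp8 was not called between model and normal lungs either (-0.39 ± 0.20, adjusted p = 0.143).

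The distance between the genomes can be given within each library, where scaling by 1 factor per library cancels, apart from the added 1. The mean log2 level of the 13 mitochondrial genes minus that of the 77 nuclear subunits was 4.53, 4.01 and 4.58 in nanozyme lungs, 4.35, 4.19 and 4.31 in model lungs, and 4.94, 4.93 and 5.003 in normal lungs. All 6 nanozyme and model libraries lay below the normal ones. The group means were 4.37 ± 0.32 in nanozyme lungs, 4.28 ± 0.085 in model lungs and 4.96 ± 0.041 in normal lungs (SD, n = 3 each), and their difference was -0.68 between model and normal lungs, -0.59 between nanozyme and normal lungs and 0.09 between nanozyme and model lungs. Without nanozyme library 2 the difference was 0.27 between nanozyme and model lungs and -0.40 between nanozyme and normal lungs, and without mt-Atp6, which is low in that library alone, it was 0.14 and -0.54, both chosen after seeing the data. By complex, the same gap between model and normal lungs was -0.74 for complex I, -0.65 for complex III, -0.60 for complex IV and -0.58 for complex V. As shares of all FPKM, the mitochondrial genes took 5.87, 4.45 and 5.98% in nanozyme lungs, 4.95, 5.23 and 4.59% in model lungs, and 7.22, 6.62 and 6.95% in normal lungs. The nuclear subunits took 1.52 to 1.59% in nanozyme lungs, 1.34 to 1.68% in model lungs and 1.32 to 1.43% in normal lungs.

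**Figure D2:**
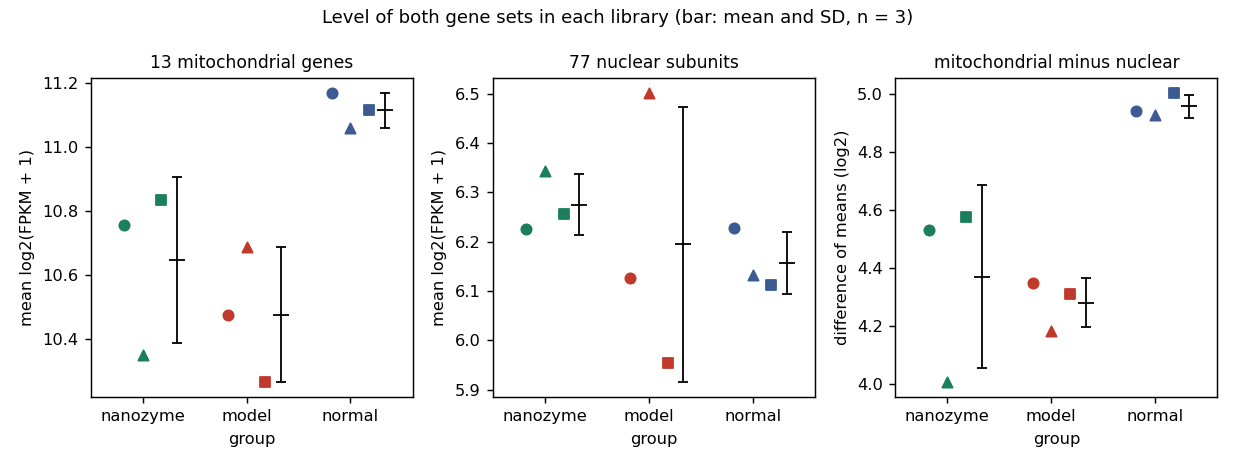
Mean log2(FPKM + 1) of the 13 mitochondrial genes (left), of the 77 nuclear subunits (centre) and their difference (right) in each library, by group, with the mean and SD of 3 mice beside the points. The difference is 4.01 to 4.58 in nanozyme lungs, 4.19 to 4.35 in model lungs and 4.93 to 5.003 in normal lungs, and model library 2 is the highest for the nuclear subunits (6.50).

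Few nuclear subunits were called. Between model and normal lungs 2 of 77 rose, Atp5d and Atp5pb, and 1 fell, Ndufb10, against the 17.4% and 22.7% of all genes tested. Between nanozyme and normal lungs 0 of 77 were called by limma, against 13.9% of all genes tested in either direction. An unadjusted limma p under 0.05 was reached by 4, and the share over all genes at that threshold is not given here. In 18 the nanozyme lungs lay above the normal lungs without overlap, against 22.1% of all genes tested. Between model and normal lungs 7 nuclear subunits lay above without overlap and 4 below, where 23.5% of all genes lay above and 34.9% below. The mean FPKM over the 9 libraries ran from 14.9 to 117 for nuclear subunits of complex I, and from 75.2 to 319.5 for those of complex IV, whereas mitochondrial genes had 471 to 6568. Many of these genes have processed pseudogenes, and the mitochondrial genes have nuclear copies. How reads that match several places were counted is not given in the sources used here.

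Ndufb10, an accessory subunit of the complex I membrane arm, was at 94.6, 83.5 and 93.02 FPKM in nanozyme lungs, 73.7, 78.7 and 61.96 FPKM in model lungs and 102, 95.9 and 91.7 FPKM in normal lungs. Each model lung was below all nanozyme and all normal lungs, and the change was -0.44 ± 0.11 between model and normal lungs (adjusted p = 0.0173) and 0.34 ± 0.11 between nanozyme and model lungs (adjusted p = 0.182). Ndufa5, an accessory subunit of the matrix arm, was also lowest in the model group on average, without passing: 43.7, 39.3 and 48.6 FPKM in nanozyme lungs, 30.9, 39.3 and 22.7 FPKM in model lungs and 43.02, 45.5 and 39.4 FPKM in normal lungs (-0.48 ± 0.18 between model and normal lungs, adjusted p = 0.0673). Nuclear core subunits of complex I carry the flavin and the iron-sulfur clusters, and those described here were not called in any comparison. Ndufs1, which carries iron-sulfur clusters, had 27.5, 22.9 and 26.9 FPKM in nanozyme lungs, 23.9, 25.04 and 25.97 FPKM in model lungs and 31.5, 24.2 and 25.7 FPKM in normal lungs. Ndufv1, the flavin-bearing entry point for NADH, had 42.1, 38.1 and 46.4 FPKM in nanozyme lungs, 39.5, 34.1 and 38.2 FPKM in model lungs and 49.6, 38.95 and 39.7 FPKM in normal lungs. The change between model and normal lungs was -0.33 for Ndufs7 and 0.17 for Ndufv2, whereas the 7 mitochondrial core subunits ran from -0.96 to -0.60.

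Complex II, which also works in the citric acid cycle, had 0 of its 4 subunits called. Between model and normal lungs 40.1% of all genes tested were called in either direction. Its flavoprotein Sdha was at 72.99, 65.6 and 69.7 FPKM in nanozyme lungs, 61.7, 54.99 and 61.99 FPKM in model lungs and 70.5, 68.9 and 71.3 FPKM in normal lungs. The 3 model lungs were the lowest of the 9, by -0.24 ± 0.09 against normal lungs (adjusted p = 0.0652). The iron-sulfur subunit Sdhb was at 83.2, 84.03 and 76.00 FPKM in nanozyme lungs, 74.3, 102 and 77.95 FPKM in model lungs and 68.4, 69.00 and 69.9 FPKM in normal lungs, with every nanozyme and model lung above the normal ones (0.28 ± 0.13 between model and normal lungs, adjusted p = 0.112). The membrane anchors Sdhc (0.04 ± 0.10, adjusted p = 0.789) and Sdhd (0.06 ± 0.13, adjusted p = 0.751) differed less between model and normal lungs.

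The nuclear subunits of complex III had a median change of -0.02 between model and normal lungs. Of these 0 of 8 were called, against 40.1% of all genes tested in either direction. Uqcrc1 and Uqcrc2 are its core proteins and Uqcrfs1 carries the Rieske iron-sulfur cluster. Uqcrc1 had 75.9, 71.7 and 80.6 FPKM in nanozyme lungs, 83.8, 86.3 and 71.8 FPKM in model lungs and 73.8, 68.3 and 69.5 FPKM in normal lungs (0.19 ± 0.10, adjusted p = 0.172). Uqcrc2 (-0.06 ± 0.12, adjusted p = 0.703) and Uqcrfs1 (0.08 ± 0.13, adjusted p = 0.635) also overlapped between these groups.

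The 12 common nuclear subunits of complex IV had a median change of 0.21 between model and normal lungs, opposite in sign to the -0.46 of their 3 mitochondrial partners. Of the 12, 0 were called, against 40.1% of all genes tested in either direction. In each of the 4 genes given next, model library 2 was the highest model lung. Cox5b, the zinc-binding subunit, was at 61.5, 92.1 and 84.3 FPKM in nanozyme lungs, 73.6, 113 and 71.9 FPKM in model lungs and 59.1, 64.4 and 56.7 FPKM in normal lungs (0.48 ± 0.21 between model and normal lungs, adjusted p = 0.0920). All model lungs were above all normal lungs. Cox5a was at 94.4, 118 and 84.7 FPKM in nanozyme lungs, 111, 138 and 91.6 FPKM in model lungs and 96.1, 75.5 and 86.3 FPKM in normal lungs (0.38 ± 0.18, adjusted p = 0.124). Cox4i1, the common form of the subunit that binds regulatory ATP, was at 335, 325 and 352 FPKM in nanozyme lungs, 278, 368 and 239 FPKM in model lungs and 341, 314 and 323 FPKM in normal lungs (-0.17 ± 0.16, adjusted p = 0.423). Cox7a2l, which links complexes III and IV into supercomplexes, was at 172, 137 and 178 FPKM in nanozyme lungs, 119, 137 and 113 FPKM in model lungs and 132, 152 and 144 FPKM in normal lungs. Every nanozyme lung was above every model lung, by 0.40 ± 0.13 (adjusted p = 0.182), though nanozyme library 2 and model library 2 nearly met.

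Both nuclear subunits that rose belong to complex V. Atp5d, the delta subunit of the central stalk, was at 109, 104 and 147 FPKM in nanozyme lungs, 135, 124 and 115 FPKM in model lungs and 93.1, 91.9 and 75.01 FPKM in normal lungs (0.52 ± 0.16 between model and normal lungs, adjusted p = 0.0285). All nanozyme and model lungs were above the normal ones. Atp5pb, the b subunit of the side stalk, was at 126, 128 and 86.8 FPKM in nanozyme lungs, 132, 170.4 and 127 FPKM in model lungs and 89.4, 109.7 and 91.9 FPKM in normal lungs (0.55 ± 0.18, adjusted p = 0.0423). No subunit of the catalytic head was called. Its beta subunit Atp5b was at 305, 306 and 285 FPKM in nanozyme lungs, 303, 339 and 308 FPKM in model lungs and 300.5, 271 and 284 FPKM in normal lungs (0.15 ± 0.10, adjusted p = 0.259). The alpha subunit Atp5a1 (-0.06 ± 0.11, adjusted p = 0.705) and the gamma subunit Atp5c1 (0.05 ± 0.21, adjusted p = 0.877) were not called. The c-ring, whose mature protein is the same from Atp5g1, Atp5g2 and Atp5g3, summed to 344, 375 and 353 FPKM in nanozyme lungs, 336, 352 and 316 FPKM in model lungs, and 361.5, 324 and 344 FPKM in normal lungs, and none of the 3 genes was called.

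**Figure D3:**
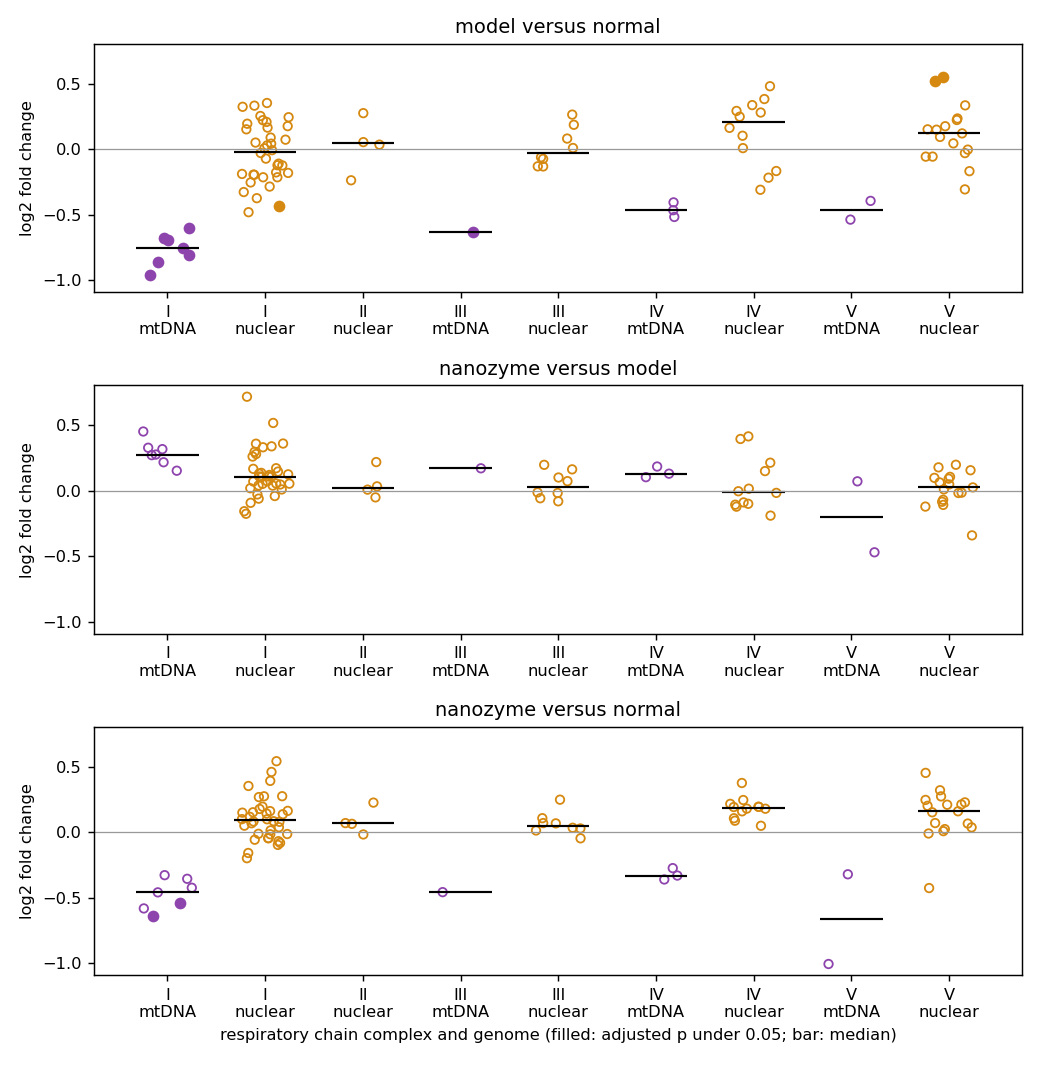
Log2 fold change of each common subunit in the 3 comparisons (panels), grouped on the horizontal axis by complex and by genome. Filled points passed the test and bars mark medians. Between model and normal lungs the mitochondrial medians are -0.75, -0.63, -0.46 and -0.46 for complexes I, III, IV and V, the nuclear medians -0.02, 0.05, -0.02, 0.21 and 0.12 for complexes I to V, and no point is filled between nanozyme and model lungs.

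The sign of the nuclear median rested on 1 library, and on the scaling (-0.14 with quantile normalization). Model library 2 held the highest value of the 9 in 56 of the 77, and their median deviation from the mean of all libraries was 0.28 there, against -0.08 and -0.23 in the other 2 model lungs. In that library the median deviation of all protein-coding genes was 0.03 for those with a median transcript under 1000 bases and -0.16 for longer ones, and 57 of the 75 nuclear subunits with a known length are under 1000 bases. The part of length in the values of model library 2 was not tested further. Without model library 2, limma called 26 members lower and 0 higher between model and normal lungs, 12 of them mitochondrial and 9 nuclear subunits, against 17.4% of all genes tested that fell in that fit, and the median of the nuclear subunits became -0.10. Ndufc2 and Ndufa5 then fell among the nuclear subunits, and Atp5d and Atp5pb no longer passed. The median of the 13 mitochondrial genes was -0.69 without this library, against -0.63 with it.

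Leaving out nanozyme library 2 changed the comparison of nanozyme with model lungs. Without it 3 members rose, Cox7a2l, Cox4i2 and Ndufa4l2, against 12.5% of all genes tested, and the count over all genes in either direction became 3216 of 14540. With model library 2 left out as well, 18 members rose in nanozyme lungs, among them 6 mitochondrial genes and 9 nuclear subunits, against 12.8% of all genes tested that rose in that fit, and the median change of the 13 mitochondrial genes was 0.45. Each of these groups then had 2 mice. Nanozyme library 2 also had a neutrophil sum of 6892, within the 6475 to 8915 of the model lungs. Nanozyme libraries 1 and 3 had sums of 1426 and 1858. The mitochondrial share of nanozyme library 2, 4.45%, was the lowest of the 9. That rank rests on mt-Atp6: without this gene the share was 4.33% in nanozyme library 2 and 4.09% in model library 3, then the lowest.

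Among the tissue variants, 3 of the 6 tested fell in model lungs and 0 rose, against 22.7% and 17.4% of all genes tested. Their median was -1.25, against -0.12 over all genes tested. None was called by limma in a nanozyme comparison, against 0% of all genes versus model lungs and 13.9% versus normal lungs. An unadjusted limma p under 0.05 was reached by 3 against model lungs, where 22.1% of all genes reached it. Against normal lungs 0 did, and the share over all genes is not given here. Cox6b2, the testis-type form of Cox6b1, was at 11.8, 13.3 and 17.3 FPKM in nanozyme lungs, 11.5, 10.2 and 6.42 FPKM in model lungs and 15.8, 17.8 and 17.4 FPKM in normal lungs. It fell between model and normal lungs by a log2 change of -0.83 ± 0.21 (adjusted p = 0.0145) with no overlap, while its common partner Cox6b1 was not called (0.29 ± 0.18, adjusted p = 0.231).

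Cox4i2 and Ndufa4l2 are the lung- and hypoxia-associated counterparts of Cox4i1 and Ndufa4, both known from vascular smooth muscle and pericytes. Cox4i2 was at 53.1, 26.1 and 60.9 FPKM in nanozyme lungs, 33.8, 14.4 and 19.8 FPKM in model lungs and 39.4, 45.6 and 40.1 FPKM in normal lungs. Ndufa4l2 was at 17.6, 9.19 and 19.7 FPKM in nanozyme lungs, 11.7, 6.25 and 6.93 FPKM in model lungs and 13.6, 15.9 and 14.6 FPKM in normal lungs. Both genes were lowest of the 9 in model library 2 and highest in nanozyme library 3, and nanozyme library 2 was the lowest of its group. Neither passed between model and normal lungs (Cox4i2 -0.93 ± 0.36, adjusted p = 0.0675; Ndufa4l2 -0.80 ± 0.29, adjusted p = 0.0572). Cox4i2 made up 13.7, 7.44 and 14.7% of the summed FPKM of Cox4i1 and Cox4i2 in nanozyme lungs, 10.8, 3.78 and 7.63% in model lungs, and 10.4, 12.7 and 11.0% in normal lungs. The summed FPKM of 13 smooth muscle and pericyte markers was 139 to 304 in nanozyme lungs, 129 to 191 in model lungs and 340.1 to 506 in normal lungs. In model lungs 7 of the 13 fell, against 22.7% of all genes tested, and the part of these cells in both genes was not tested.

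Cox6a2, Cox7a1 and Cox8b are the heart and skeletal muscle forms of their subunits. Cox6a2 was at 32.6, 16.1 and 15.2 FPKM in nanozyme lungs, 8.56, 16.9 and 6.72 FPKM in model lungs and 47.4, 19.4 and 34.4 FPKM in normal lungs (-1.58 ± 0.43 between model and normal lungs, adjusted p = 0.0205). Cox7a1 was at 5.21, 2.43 and 2.25 FPKM in nanozyme lungs, 1.71, 3.52 and 0.830 FPKM in model lungs and 14.1, 3.04 and 9.54 FPKM in normal lungs (-1.61 ± 0.52, adjusted p = 0.0377). Cox8b was at 15.04, 0.480 and 1.75 FPKM in nanozyme lungs, 0.711, 6.43 and 0 FPKM in model lungs and 13.6, 3.66 and 7.62 FPKM in normal lungs (-1.84 ± 0.99, adjusted p = 0.166). All 3 were highest in library 1 among nanozyme lungs, in library 2 among model lungs and in library 1 among normal lungs, as were both marker sums that follow. The cardiac marker sum was 284, 20.1 and 27.5 FPKM in nanozyme lungs, 50.3, 102 and 12.1 FPKM in model lungs, and 945, 157 and 519.6 FPKM in normal lungs. The skeletal muscle sum was 1379, 4.11 and 5.36 FPKM in nanozyme lungs, 3.97, 326 and 2.69 FPKM in model lungs, and 24.4, 4.23 and 13.4 FPKM in normal lungs. How far muscle carried in the samples sets these 3 genes was not tested. The common partners Cox6a1 (0.16 ± 0.14, adjusted p = 0.372), Cox7a2 (0.25 ± 0.17, adjusted p = 0.267) and Cox8a (0.28 ± 0.16, adjusted p = 0.189) were not called.

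The promoters of Cox8b and Cox8a, the muscle and common forms of one subunit, are shown to set their letters side by side. They run from 250 bases before to 50 after the start (RefSeq, GRCm38.p6), at chr7:140900397-140900696 for Cox8b and chr19:7217567-7217866 for Cox8a, both on the minus strand. Capitals mark 4 words searched on both strands: CAGCTG, a form of the E-box bound by muscle regulators, TATAAA, the TATA box, CGGAAG, the core read by ETS factors such as GABP, and TGCGCA, the centre of the NRF1 site.
Cox8b promoter: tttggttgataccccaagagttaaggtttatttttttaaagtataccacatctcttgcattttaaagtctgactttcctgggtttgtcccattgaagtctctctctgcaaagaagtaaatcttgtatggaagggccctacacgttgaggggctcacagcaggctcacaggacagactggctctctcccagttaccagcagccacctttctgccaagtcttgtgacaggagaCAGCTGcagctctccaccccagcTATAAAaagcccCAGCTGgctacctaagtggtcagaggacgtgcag
Cox8a promoter: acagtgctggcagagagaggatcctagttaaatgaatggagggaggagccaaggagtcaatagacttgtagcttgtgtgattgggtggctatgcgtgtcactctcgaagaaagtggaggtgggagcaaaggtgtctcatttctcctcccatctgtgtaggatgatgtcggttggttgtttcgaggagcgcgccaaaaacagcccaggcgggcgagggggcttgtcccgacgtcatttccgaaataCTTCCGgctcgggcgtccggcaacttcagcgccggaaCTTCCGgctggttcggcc
The Cox8b window held 2 CAGCTG and 1 TATAAA and no match to the other words. The Cox8a window held 2 CGGAAG and none of the others. The window of Cox7a1, another muscle form, held 0 matches to any of the 4 words. Of the 4 tissue variants with a window, only Cox8b held CAGCTG, 2 held TATAAA, and 0 held CGGAAG or TGCGCA. Of the 65 nuclear subunits with an entry in that table, 28 held CGGAAG (43.1%), against 18.8% of 27025 genes, and 18 held TGCGCA (27.7%), against 8.79%. CAGCTG was found in 5 (7.69%), against 18.3%, and TATAAA in 6 (9.23%), against 15.7%. A gene with several windows counts once if any holds the word, and a match is a description, not a binding site.

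**Figure D4:**
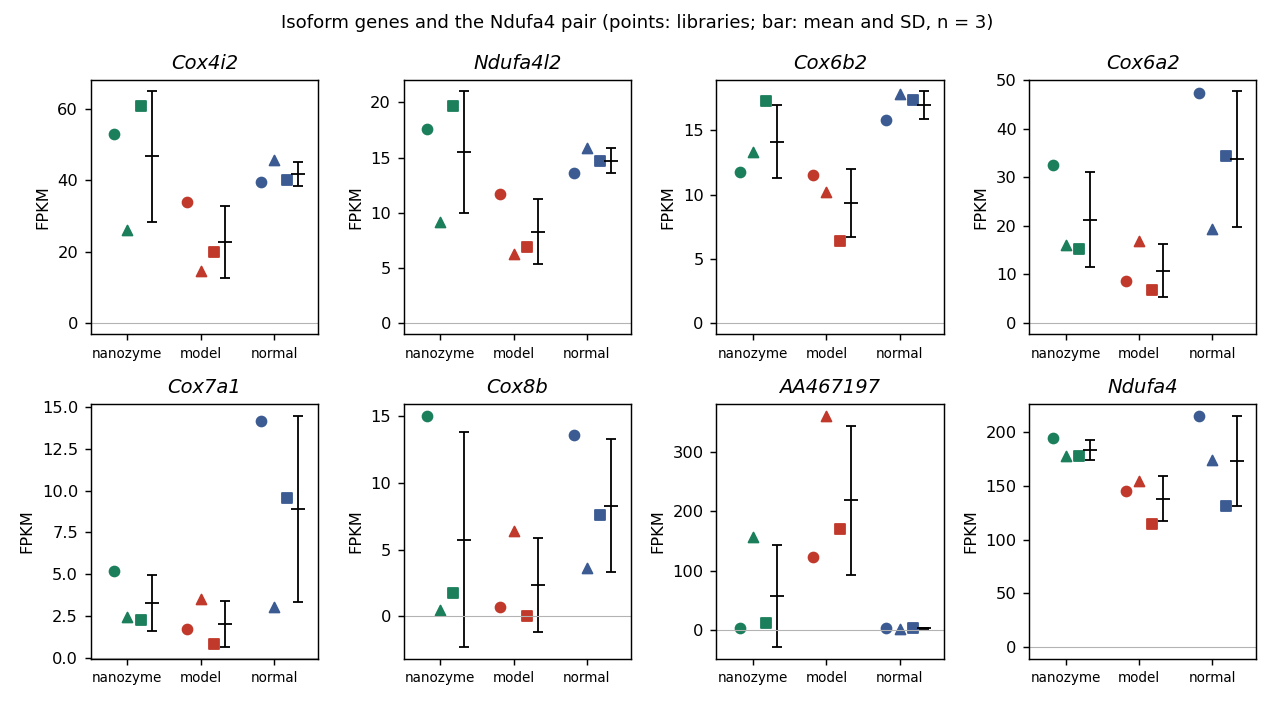
FPKM of the 6 tested tissue variants and of AA467197 and Ndufa4 in each library, by group, with the mean and SD of 3 mice beside the points. AA467197 is at 124 to 362 in model lungs and 1.95 to 3.36 in normal lungs, and nanozyme library 2 (157) stands with the model lungs. The other nanozyme libraries are at 3.53 and 11.4.

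Ndufa4 is a subunit of complex IV, despite its name. It was at 194, 178 and 178 FPKM in nanozyme lungs, 145, 155 and 114 FPKM in model lungs and 215, 174 and 131 FPKM in normal lungs. All nanozyme lungs were above all model lungs (0.42 ± 0.19, adjusted p = 0.237), and the model and normal lungs overlapped (-0.31 ± 0.19, adjusted p = 0.218). AA467197, also called Nmes1, encodes a related protein that can take the place of Ndufa4 in complex IV of inflamed cells, and lies outside the symbol rule. It was at 3.53, 157 and 11.4 FPKM in nanozyme lungs, 124, 362 and 171 FPKM in model lungs and 3.33, 1.95 and 3.36 FPKM in normal lungs, a change of 5.70 ± 1.11 between model and normal lungs (adjusted p = 0.00532). The ratio of Ndufa4 to AA467197 was 55.0, 1.13 and 15.6 in nanozyme lungs, 1.17, 0.427 and 0.669 in model lungs, and 64.4, 89.2 and 39.0 in normal lungs. AA467197 is also high in myeloid cells, and the neutrophil and macrophage sums were higher in every model lung than in every normal lung. In nanozyme libraries 1 and 3, where AA467197 was 3.53 and 11.4, both sums stayed above the highest normal ones. The neutrophil sums there were 1426 and 1858, against at most 417 in normal lungs. The macrophage sums were 702 and 670, against at most 186. The part of these cells in AA467197 was not tested.

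Of the 8 complex I assembly factors, 2 fell in model lungs and 0 rose, a share near the 22.7% of all genes tested that fell, with a median of -0.20. Ndufaf4 was at 3.98, 4.09 and 4.27 FPKM in nanozyme lungs, 5.26, 5.29 and 4.37 FPKM in model lungs and 6.46, 6.17 and 6.25 FPKM in normal lungs. It fell between model and normal lungs (-0.29 ± 0.10, adjusted p = 0.0495) and between nanozyme and normal lungs (-0.51 ± 0.10, adjusted p = 0.0142), where it was the only nuclear member called, and every nanozyme lung was below every model lung. Ndufaf7, a methyltransferase, was at 12.4, 14.4 and 14.2 FPKM in nanozyme lungs, 15.1, 12.9 and 11.2 FPKM in model lungs and 17.2, 16.7 and 17.3 FPKM in normal lungs (-0.37 ± 0.12 between model and normal lungs, adjusted p = 0.0373). Of 40 tested assembly factors outside the rule, 5 rose and 1 fell between model and normal lungs, with a median of -0.09. Over all genes tested 17.4% rose and 22.7% fell. Those that rose were the complex IV factors Cox15, Cox18, Coa4 and Coa5 and the complex I factor Foxred1, led by Coa5 (0.51 ± 0.11, adjusted p = 0.00763). Nubpl, which inserts iron-sulfur clusters into complex I, fell (-0.63 ± 0.15, adjusted p = 0.0106).

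Most genes that keep and read the mitochondrial genome were not called. Of 32 tested, 5 fell and 1 rose between model and normal lungs, with a median of -0.15, against 22.7% and 17.4% of all genes. Mterf4, needed for assembly of the mitochondrial ribosome, was at 9.66, 9.76 and 7.67 FPKM in nanozyme lungs, 6.69, 5.99 and 8.01 FPKM in model lungs and 14.1, 12.6 and 13.1 FPKM in normal lungs (-0.86 ± 0.13 between model and normal lungs, adjusted p = 0.00224; -0.51 ± 0.13 between nanozyme and normal lungs, adjusted p = 0.0366). Tfb2m, the factor that opens mitochondrial promoters, was at 8.32, 7.39 and 7.97 FPKM in nanozyme lungs, 6.21, 6.01 and 6.30 FPKM in model lungs and 9.23, 8.62 and 9.27 FPKM in normal lungs (-0.49 ± 0.09 between model and normal lungs, adjusted p = 0.00436). Fastkd1, Grsf1 and Polg2 also fell, and Pnpt1, a mitochondrial exoribonuclease, rose (0.49 ± 0.15, adjusted p = 0.0314). The packaging and transcription factor Tfam (-0.22 ± 0.10, adjusted p = 0.111) and the polymerase Polrmt (-0.16 ± 0.14, adjusted p = 0.394) were not called. Of 78 mitochondrial ribosomal proteins, which translate the 13 messages, 4 rose and 3 fell between model and normal lungs, with a median of 0.05.

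Among 11 tested regulators of mitochondrial biogenesis, 3 fell and 4 rose in model lungs, with a median of -0.03. Over all genes tested 22.7% fell and 17.4% rose, with a median of -0.12. Ppargc1a, the PGC-1 alpha coactivator, was at 0.578, 0.498 and 0.712 FPKM in nanozyme lungs, 0.461, 0.539 and 0.287 FPKM in model lungs and 2.71, 1.61 and 1.89 FPKM in normal lungs (-1.09 ± 0.17 between model and normal lungs, adjusted p = 0.00210; -0.93 ± 0.17 between nanozyme and normal lungs, adjusted p = 0.00957). Sirt3, the mitochondrial deacetylase, was at 7.71, 7.84 and 9.15 FPKM in nanozyme lungs, 7.95, 9.17 and 5.98 FPKM in model lungs and 16.4, 12.9 and 14.6 FPKM in normal lungs (-0.85 ± 0.16 between model and normal lungs, adjusted p = 0.00430). For both genes the nanozyme and model lungs overlapped and both stood below normal. Sirt1 fell too, and Gabpb1, Esrra, Perm1 and Myc rose in model lungs. Myc, which drives growth and ribosome production, was at 6.31, 4.19 and 4.45 FPKM in nanozyme lungs, 8.25, 5.61 and 5.86 FPKM in model lungs and 2.97, 2.35 and 2.95 FPKM in normal lungs (adjusted p = 0.00410 between model and normal lungs).

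The enzymes that supply the chain with electrons were also read. In the citric acid cycle and pyruvate dehydrogenase, 7 of 18 fell and 1 rose between model and normal lungs, with a median of -0.20. Over all genes tested 22.7% fell and 17.4% rose, with a median of -0.12. These shares also apply to the other model counts of this paragraph. Suclg2, the GTP-forming subunit of succinyl-CoA synthetase, was at 11.6, 3.45 and 10.6 FPKM in nanozyme lungs, 3.15, 2.72 and 3.28 FPKM in model lungs and 13.4, 15.97 and 14.1 FPKM in normal lungs (-1.93 ± 0.35 between model and normal lungs, adjusted p = 0.00397), and nanozyme library 2 stood with the model lungs. Idh2, Sucla2 and Fh1 fell by less (-0.74, -0.45 and -0.42), and citrate synthase Cs rose (0.28 ± 0.10, adjusted p = 0.0442). Of 19 electron carriers and quinone-linked dehydrogenases, 2 fell, Prodh (-0.79 ± 0.14, adjusted p = 0.00368) and Etfa (-0.42 ± 0.14, adjusted p = 0.0404), and cytochrome c itself, Cycs, was not called (0.51 ± 0.22, adjusted p = 0.0925), and the list's median was -0.11. Of 20 import and housekeeping genes of the organelle, 2 rose, Timm23 and Phb2, with a median of 0.03. Of 13 tested inhibitors, uncouplers and hypoxic switches, AA467197, Ucp2 and Hif1a rose, and Pdk2, Pdk4 and Bnip3l fell, with a median of -0.11. In nanozyme lungs Hif1a was at 19.6, 34.2 and 18.5 FPKM, in model lungs at 36.5, 50.3 and 53.3 FPKM and in normal lungs at 16.2, 16.2 and 16.9 FPKM (1.44 ± 0.23 between model and normal lungs, adjusted p = 0.00262). Between nanozyme and model lungs limma called 0 genes of any of these 8 lists, as of the whole table. Between nanozyme and normal lungs the calls in these lists were Mterf4, Ppargc1a, Sirt3 and Mrps6, which fell, and Myc and Mrpl27, which rose. In that comparison 5.5% of all genes tested fell and 8.39% rose.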

How the data were processed

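Whole lungs of 9 mice, 3 per group, were homogenised, RNA was extracted and polyadenylated RNA was sequenced, per the labels' protocols. Reads were aligned with HISAT2 to GRCm38, per the submitters' processing notes. The annotation, the counting tool and its strand setting, and all versions are not given in the sources used here. The authors deposited 1 table of FPKM values with 1 column per library. FPKM sums ran from 443746 to 519772. Depth is unknown. Whole reads could not be recovered: between any pair of libraries, the most common ratio of low FPKM held at most 2.90% of 1346 genes.

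Tests covered the 14540 genes that reached an FPKM of 1 in 3 or more libraries of any group, on log2(FPKM + 1), with limma 3.58.1 (R 4.3.3), 1 coefficient per group, an intensity trend, two-sided tests and Benjamini-Hochberg adjustment at 0.05 in each of 3 comparisons. Each library was taken as 1 mouse. An exact permutation test of 3 against 3 cannot go below 0.10 and was not run. The test was tried on simulated data. Named genes were all mitochondrial members, nuclear core subunits (one item is not reported here), tissue variants with their partners, the largest called changes, and per list the called genes with the smallest p-values; others were chosen after their values were seen. Members, 8 pathway lists and 12 marker lists were chosen with earlier results of these data known. Of the 106 symbols 104 matched GENCODE vM21, which gave lengths. Alternatives were a pseudocount of 0.1, no filter, a mean FPKM of at least 5, 5 other scalings, fits of the groups compared only, no intensity trend, a replicate block and leaving out each library. Same-numbered libraries correlated between -0.33 and 0.23 in their deviations, and differently numbered ones between -0.36 and 0.38. Whether the numbers pair the mice cannot be told from these values, and the main fit used no pairing. Figures used matplotlib 3.10.9.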

Additional observations from a re-analysis of the deposited data

How the results depend on the processing

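Of 16 members called between model and normal lungs, mt-Nd2, mt-Nd4, mt-Nd4l, mt-Nd5 and Cox6b2 passed under all 21 alternatives, Ndufaf4 passed under 5, Ndufaf7 under 10, Atp5pb under 11 and Atp5d under 13, and no call reversed. Members called were 10 with median-of-ratios scaling (5 mitochondrial), 26 without the 100 most abundant genes in the scaling, 31 with quantile normalization and 35 without model library 2 and nanozyme library 2 together (13 mitochondrial), an alternative chosen after seeing the data. Over all genes, 5824 were called in the main fit, and 5693, 6430, 5946 and 6661 in these alternatives in the same order. Leaving out 1 library gave 5 to 26, and 4 to 12 mitochondrial: 5 without normal library 1, 9 without normal library 2, 6 without normal library 3 and 26 without model library 2 (4 mitochondrial without normal library 1 or 3, 12 without model library 2). Over all genes, 3942, 4411 and 3836 were called without normal libraries 1, 2 and 3, and 4905 without model library 2. The median of nuclear subunits was -0.14 with quantile normalization, and ran from -0.14 to 0.17, so its sign depends on scaling and on model library 2. That of mitochondrial genes ran from -0.76 to -0.50. Scaling shifted the median of all genes from -0.12 to -0.01 (median-of-ratios) or -0.23 (without the 100 most abundant). Between nanozyme and model lungs 0 members were called, except 3 without nanozyme library 2 and 18 without both libraries, with a mitochondrial median of 0.45 in that fit and 0.15 to 0.35 when 1 library was left out. With median-of-ratios scaling that median was 0.08 and the nuclear one -0.05, and the nuclear one ran from -0.06 to 0.22 when 1 library was left out. Between nanozyme and normal lungs the count was 1 without a filter or with quantile normalization (0 mitochondrial in both, and with equal column sums), 5 without the 100 most abundant genes or with no intensity trend (4 mitochondrial in both), 9 without both libraries (4 mitochondrial), and 0 to 7 when 1 library was left out (0 to 4 mitochondrial): 0 without normal library 1 or 3 and 7 without model library 2. Over all genes, the 2020 called between nanozyme and normal lungs became 795 without normal library 1, 748 without normal library 3 and 2258 without model library 2. They became 1892 of 21260 tested without a filter, 2456 with quantile normalization and 1882 with equal column sums. The count was 2182 without the 100 most abundant genes, 2038 with no intensity trend and 2812 without both libraries. With a replicate block, 13, 0 and 2 members were called in the 3 comparisons, and 1 mitochondrial gene between nanozyme and normal lungs. The counts over all genes with that block were 5628, 0 and 1734 in the same order. The causes were not tested. Read depth, which is unknown, limits all low values.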

Other observations

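Ndufa12, an accessory subunit of complex I, had the largest standard error of the common nuclear subunits, with high and low values in more than one group: 10.5, 12.97 and 51.4 FPKM in nanozyme lungs, 10.4, 11.6 and 12.2 FPKM in model lungs and 12.2, 43.8 and 3.62 FPKM in normal lungs. Nanozyme library 3 and normal library 2 stood high, and normal library 3 was the lowest of the 9. Atp5g1, one of 3 genes for the same mature c-ring protein, was at 29.95, 61.7 and 37.2 FPKM in nanozyme lungs, 43.3, 33.5 and 61.3 FPKM in model lungs and 63.4, 48.8 and 55.03 FPKM in normal lungs. Ndufb2 was highest in library 2 of the nanozyme and model groups, at 21.9, 40.6 and 18.2 FPKM in nanozyme lungs, 23.9, 50.6 and 18.6 FPKM in model lungs and 25.7, 16.9 and 25.5 FPKM in normal lungs. None of the 3 genes was called in any comparison.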
